A study of Mus musculus with 24 samples.

Results

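Adipocytes keep their triglyceride in droplets whose surface is covered by proteins of the perilipin family and a handful of partners. The 10 genes described here, Plin1, Plin2, Plin3, Plin4, Plin5, Cidec, Fitm2, Bscl2, Hilpda and G0s2, were taken by gene symbol from the table of 16821 genes deposited for inguinal white adipose tissue (IWAT). All 10 were in the table, and all 10 were among the 15176 genes that passed the filter on low counts. The members were chosen by name without a cut-off on measured values, but with earlier results of these data known.

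The tissue came from 24 male C57BL6/J mice, which ate their diet from 5 weeks of age for 12 weeks and were sacrificed, aged 4 months, 4 h after food was removed. Elemental controls (6 mice) received free amino acids with 0.86% methionine, and elemental MR mice (6 mice, methionine restriction) received free amino acids with 0.17% methionine. Casein controls (6 mice) received casein pellets with 0.86% methionine, and oxidized casein MR mice (6 mice) received casein whose methionine had been lost by oxidation and was then supplied at 0.17%. Protein oxidation and methionine level therefore changed together in the casein comparison and cannot be told apart in it. The labels give each library its own mouse number, so that the spread between the 6 libraries of a diet is a spread between mice. They give no sequencing batch, and the series' design text names liver, whereas IWAT is what the series title, the extraction text and each sample's source give.

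A lipid droplet is a core of neutral lipid under a single layer of phospholipid, and it grows out of the endoplasmic reticulum. Seipin (Bscl2) and the FIT proteins shape this step, and perilipins then coat the surface and decide which lipases reach the lipid. In white adipocytes PLIN1 is the main coat of the large droplet: at rest it holds ABHD5, the co-activator of the lipase ATGL (Pnpla2), and it lets go of it after phosphorylation by protein kinase A. CIDEC, found where droplets touch, moves lipid from the smaller to the larger one and is needed for a single large droplet. PLIN2 and PLIN3 coat droplets in most tissues, PLIN4 sits on nascent droplets of adipocytes, and PLIN5 is typical of oxidative tissues such as heart and brown fat, where it ties droplets to mitochondria. G0S2 and HILPDA are small inhibitors of ATGL.

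Among the perilipins, Plin4 (chromosome 17, 56100591 to 56109803, GRCm38) and Plin5 (chromosome 17, 56111601 to 56117596) are neighbours on the minus strand with 1797 bases between them, and Plin3 (chromosome 17, 56277476 to 56292873) lies 159879 bases beyond Plin5 on the same strand. Plin1 is on chromosome 7 (79720218 to 79732903, minus strand) and Plin2 on chromosome 4 (86648386 to 86670060, minus strand). Cidec (chromosome 6, 113424634 to 113435760, minus) and Hilpda (chromosome 6, 29272488 to 29275446, plus) share a chromosome. Fitm2 is at chromosome 2, 163466379 to 163472629 (minus), Bscl2 at chromosome 19, 8837467 to 8848683 (plus), and G0s2 at chromosome 1, 193272161 to 193273217 (minus).

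Plin2 and Plin5 were the members whose levels changed on the casein diets, and peroxisome proliferator-activated receptors (PPARs), which bind a pair of AGGTCA-like half-sites, are known regulators of both. The 250 bases before their RefSeq start (GRCm38.p6) are shown for that reason, 5′ to 3′ on the gene's strand, with AGGTCA or its reverse complement TGACCT in capitals. The Plin2 window is chr4:86670060-86670309 (minus strand) and the Plin5 window chr17:56117549-56117798 (minus strand).
Plin2: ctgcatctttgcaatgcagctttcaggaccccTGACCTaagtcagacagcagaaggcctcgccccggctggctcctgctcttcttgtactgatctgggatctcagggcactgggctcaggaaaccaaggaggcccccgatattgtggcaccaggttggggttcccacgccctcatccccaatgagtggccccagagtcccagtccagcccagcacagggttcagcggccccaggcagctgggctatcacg
Plin5: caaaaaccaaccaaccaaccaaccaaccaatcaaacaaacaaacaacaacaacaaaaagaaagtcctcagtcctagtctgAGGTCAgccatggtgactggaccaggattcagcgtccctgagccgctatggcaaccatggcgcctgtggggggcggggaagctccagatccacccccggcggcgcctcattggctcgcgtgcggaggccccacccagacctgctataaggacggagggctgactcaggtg
The Plin2 match lies on the opposite strand, with its first base 218 bases before the start, and the Plin5 match lies on the gene's strand, 170 bases before the start. Matches to AGGTCA on either strand were found for 3 of the 10 members (Plin2, Plin5 and Bscl2). They lay in 3 of the 15 windows of the members, against 14.0% of all 32817 RefSeq promoter windows of this length. The full double site, a direct repeat of AGGTCA with 1 base between the copies, was found for 0 of 10 members and in 0.0335% of all windows. The hypoxia-response cores ACGTG and GCGTG were found for 1 member (Hilpda) and 7 members. They lay in 1 and 8 of the 15 windows, against 16.6% and 28.1% of all windows. The 10 members together have 15 windows because some have several starts, so that counts of members and shares of windows are unlike measures. A match is a description of these letters and not a measured binding site.

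Levels are given as CPM, the reads of a gene relative to the library's total, after TMM scaling of the totals (a trimmed mean of between-library ratios). Reads start near the 3′ end of the transcript, so that a count does not scale with transcript length, although priming can still differ between genes. Library totals ran from 7468336 to 19868913 reads, and the fewest reads for any member in any library were 156, for Hilpda. Adipocyte markers were high in every library, with a summed level of the 12 markers between 25080 and 74010 CPM, while 10 hepatocyte markers summed to 63.95 to 10430 CPM. Fewer adipocytes and less RNA per adipocyte cannot be told apart in such bulk samples.

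The pad holds a lymph node, and 15 libraries carried its transcripts (mean log2 CPM of 10 B cell markers from 5.25 to 6.93) while 9 did not (0.0544 to 3.18). Node transcripts were found in 4 of 6 libraries of the elemental controls and 5 of 6 of the elemental MR mice. On casein they were found in 4 of 6 control and 2 of 6 MR libraries. The mean log2 CPM of the 12 adipocyte markers was 9.36 to 10.2 with the node and 10.26 to 10.7 without it. The libraries of elemental control 2 and elemental MR 2 were rich in muscle transcripts (over 1000 CPM of Acta1, skeletal muscle actin). Mitochondrially encoded reads made up 21.57% to 31.14% of the library in elemental controls and 29.53% to 36.22% in elemental MR. On casein this share was 15.09% to 24.17% for controls and 22.63% to 35.81% under MR. These values stand beside the members' results below.

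Over the 24 libraries, Plin4 had the highest mean level (1369 CPM), followed by Plin1 (1204 CPM), Cidec (813.5 CPM) and Plin2 (572.8 CPM). Bscl2 (307.1 CPM) and G0s2 (182.1 CPM) were intermediate, and Fitm2 (76.85 CPM), Plin3 (72.65 CPM), Plin5 (55.81 CPM) and Hilpda (32.52 CPM) were low. Neighbours in this order were not always separated: Plin4 was above Plin1 in 14 of 24 libraries, Fitm2 above Plin3 in 12 and Plin3 above Plin5 in 15. Plin1 was above Cidec in 23 libraries, Bscl2 above G0s2 in 23, and G0s2 above Fitm2 in all 24.

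The members also differed in how much they varied. Plin5 had the widest span, with a ratio of 9.53 between its highest and lowest library, followed by Hilpda (7.54) and Plin2 (7.34). Plin1 was the steadiest, with a ratio of 1.92, and Plin3 came next with 2.17.

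**Figure D1:**
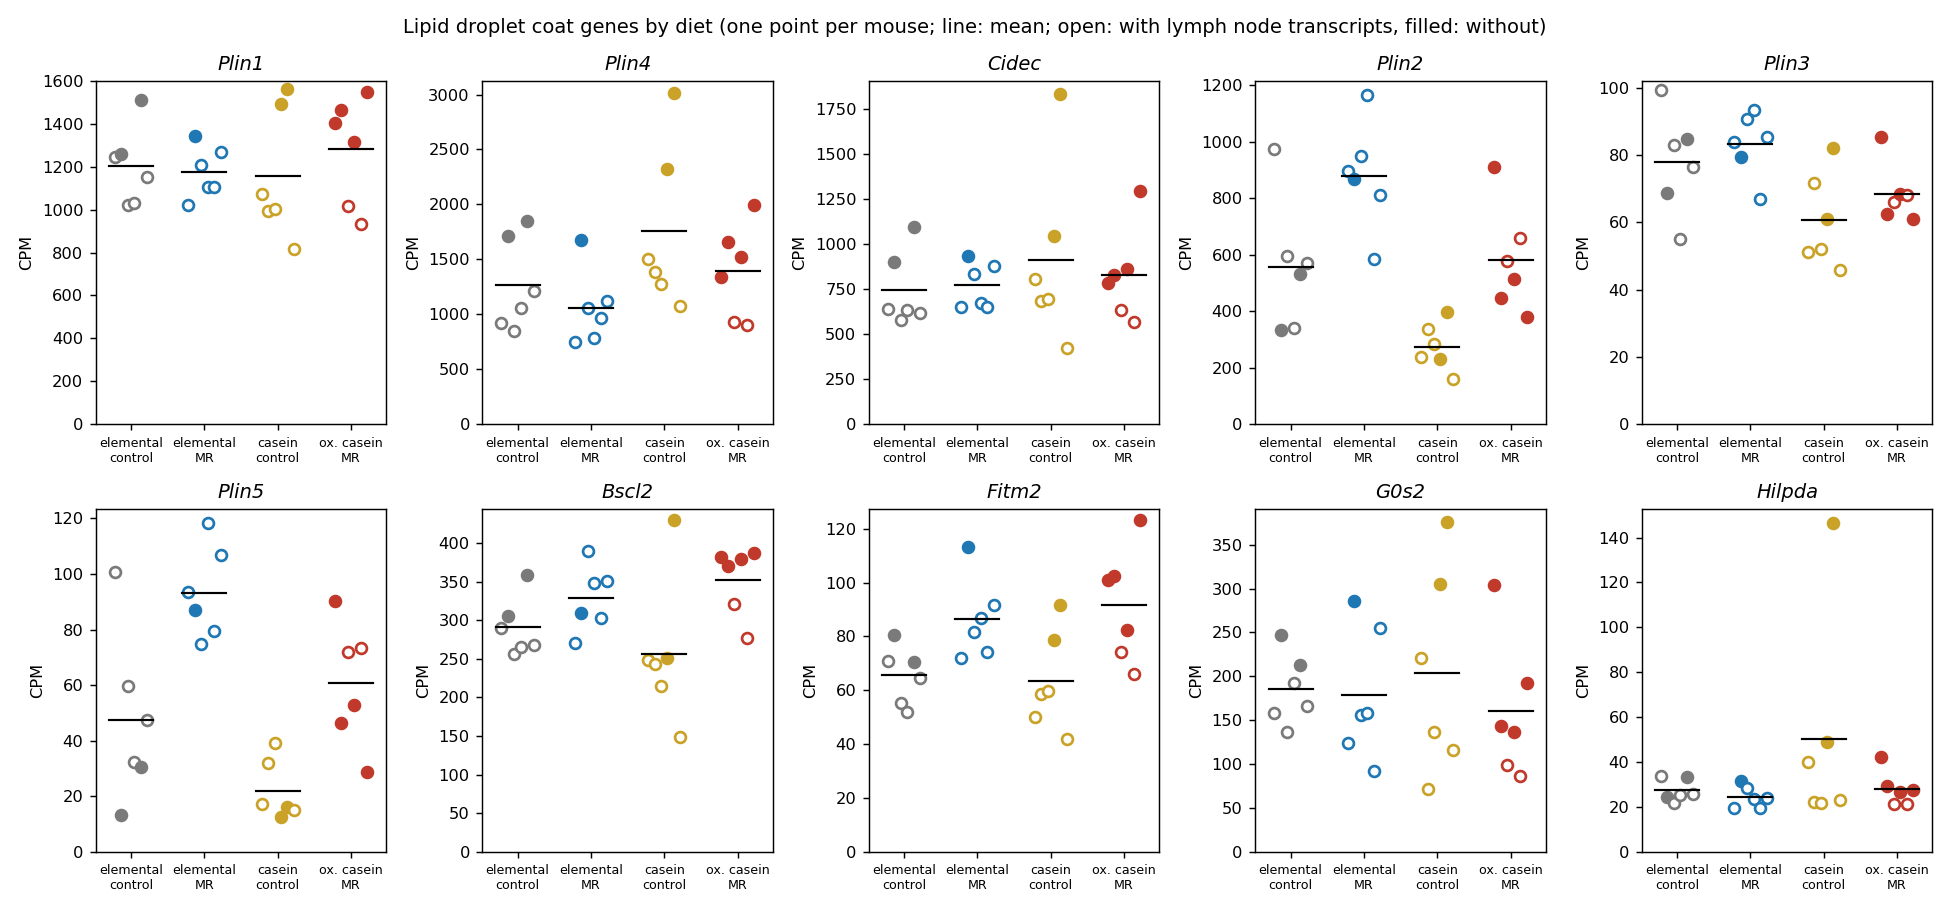
CPM (linear axis from 0) of each of the 10 genes in each of the 24 mice by diet, 1 point per mouse, with the diet mean as a line; open points are libraries with lymph node transcripts and filled points those without. Plin5 ran from 12.41 to 39.08 CPM in casein controls and from 28.7 to 90.1 CPM in oxidized casein MR, while Plin1 stayed between 815.5 and 1563 CPM in all diets.

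The effect of MR was read from 3 comparisons: elemental MR against elemental control, oxidized casein MR against casein control, and the average of both effects. On casein, 2 of the 10 members passed the test (edgeR quasi-likelihood, Benjamini-Hochberg adjusted p under 0.05 over all genes), Plin2 and Plin5, both higher under MR. Of all 15176 genes 579 passed (3.82%), and 509 were higher (3.35%). On elemental amino acids 0 of 10 passed, as against 37 genes overall (0.244%), and for the average effect 3 of 10 passed (Plin2, Plin5 and Fitm2, all higher), as against 1061 genes overall (6.99%), 794 of them higher (5.23%). At an unadjusted p under 0.05, 3 members on elemental amino acids, 5 on casein and 4 for the average effect stood beside 10.2%, 16.1% and 19.1% of all genes. DESeq2 and limma voom also called 0 members on elemental amino acids. The median log2 fold change of the 10 members was 0.07 (elemental), 0.16 (casein) and 0.10 (average), beside -0.02, -0.06 and -0.07 over all genes tested. None of the 10 had diet groups that did not overlap, in either MR comparison, as against 0.824% and 2.69% of all genes. The same held between the controls and between the MR diets, where 0.929% and 0.428% of all genes did not overlap.

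Plin5, the perilipin of oxidative tissues, had the largest fold change of the members. In casein controls it ran from 12.41 to 39.08 CPM with a median of 16.58, and in oxidized casein MR from 28.7 to 90.1 CPM with a median of 62.45. Above every casein control lay 5 of 6 oxidized casein MR mice, and the remaining mouse lay within the control range. The difference was 2.76-fold (log2 fold change 1.47, SE 0.37, 95% interval 0.69 to 2.24, edgeR adjusted p = 0.0269).

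In the elemental diets Plin5 ran from 13.35 to 100.8 CPM in controls (median 39.89) and from 74.63 to 118.2 CPM in MR mice (median 90.25). All 6 MR mice lay above 5 of the 6 controls, and elemental control 1, at 100.8 CPM, lay inside the MR range. The fold change was 1.97 (log2 0.98, SE 0.37, 95% interval 0.22 to 1.74) and did not pass the test (edgeR adjusted p = 0.315). With 1 library left out, the log2 effect ran from 0.78 to 1.33, the highest without elemental control 1. The edgeR adjusted p then ran from 0.0529 to 0.586. Averaged over both protein sources Plin5 was 2.34-fold higher under MR (log2 1.22, SE 0.26, edgeR adjusted p = 0.00467).

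Plin2, the perilipin found in most tissues and elevated where fatty acids flow into cells, ran from 158.7 to 397.6 CPM in casein controls (median 261.2) and from 377.5 to 910.5 CPM in oxidized casein MR (median 546.5). Again 5 of 6 MR mice were above every control. Plin2 rose 2.12-fold (log2 1.08, SE 0.26, 95% interval 0.55 to 1.61, edgeR adjusted p = 0.0164).

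In the elemental diets Plin2 ran from 332.3 to 974.3 CPM in controls (median 550.5) and from 583.3 to 1165 CPM in MR mice (median 881.8). The groups overlapped, and 1 MR mouse was above all controls. The log2 fold change was 0.66 (SE 0.26, edgeR adjusted p = 0.332). With 1 library left out, it ran from 0.54 to 0.87, the highest without elemental control 1 (edgeR adjusted p over all these fits from 0.0605 to 0.629). The average effect was 1.83-fold (log2 0.87, SE 0.18, edgeR adjusted p = 0.00331).

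Plin3, the other broadly expressed perilipin, differed little. Its means were 78.0 ± 15.1 CPM in elemental controls, 83.4 ± 9.46 in elemental MR, 60.7 ± 13.8 in casein controls and 68.6 ± 8.77 in oxidized casein MR (SD, n = 6 each). Its average log2 difference was 0.14 (SE 0.10, 95% interval -0.07 to 0.34, edgeR adjusted p = 0.512).

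Plin1, the main coat of the white adipocyte droplet, was at 1204 ± 183 CPM in elemental controls, 1176 ± 120 in elemental MR, 1157 ± 300 in casein controls and 1281 ± 250 in oxidized casein MR (SD, n = 6 each). The 4 groups overlapped throughout. The 95% interval of the average MR effect on Plin1 was -0.18 to 0.29 on the log2 scale (estimate 0.06, edgeR adjusted p = 0.833).

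Plin4, which coats nascent droplets, was at 1266 ± 418 CPM in elemental controls and 1058 ± 336 in elemental MR, and at 1762 ± 747 in casein controls and 1390 ± 427 in oxidized casein MR (SD, n = 6 each). Its casein control group reached 3010 CPM in casein control 5 and went down to 1079 CPM. The log2 difference was -0.26 on elemental amino acids, -0.34 on casein and -0.30 on average (SE 0.27, 0.27 and 0.19), and none passed (edgeR adjusted p = 0.869, 0.567 and 0.428). In fits that held the lymph node or the adipocyte marker level constant, Plin4 was called lower under MR on casein, with log2 differences of -0.60 and -0.82 (edgeR adjusted p = 0.00423 and 0.000198). Over all genes, 431 and 775 were called lower in these fits, where 70 were in the fit of diet means. The adipocyte marker level itself differed by diet, with a median log2 CPM of 9.84 in casein controls and 10.41 in oxidized casein MR. The node was also found unequally, in 4 and 2 libraries of 6. These terms and the diet effect cannot be fully told apart.

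Cidec, the droplet fusion protein, ranged from 420 to 1835 CPM in casein controls (median 749.3) and from 568.5 to 1295 CPM in oxidized casein MR (median 804.6). Its means were 743 ± 207 CPM in elemental controls and 770 ± 128 CPM in elemental MR (SD, n = 6 each). The average log2 difference was -0.05 (95% interval -0.43 to 0.34, edgeR adjusted p = 0.92).

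**Figure D2:**
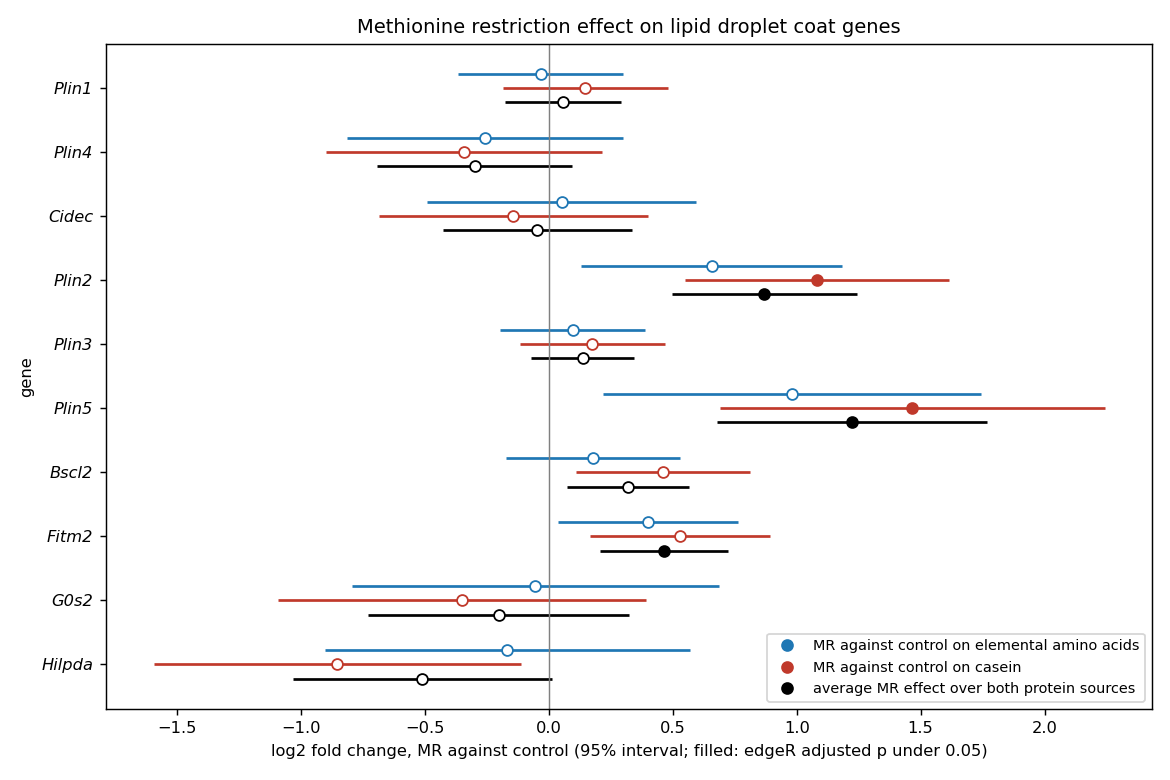
Log2 fold change of MR against control for each gene (horizontal axis) with its 95% interval, for elemental amino acids, for casein and for the average of both; filled points passed the edgeR test. Plin2 and Plin5 passed on casein and on average, Fitm2 on average alone, and the Plin1 intervals straddle 0.

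Among the genes of droplet formation, Fitm2, an endoplasmic reticulum protein that helps droplets bud, was at 51.85 to 80.62 CPM in elemental controls (median 67.47) and 72.1 to 113.4 CPM in elemental MR (median 84.24). On casein it was at 41.78 to 91.55 CPM in controls (median 59.3) and 66.08 to 123.4 CPM in MR mice (median 91.76). Above all controls of their protein source lay 4 of 6 elemental MR and 3 of 6 oxidized casein MR mice. Neither comparison alone passed (log2 0.40 and 0.53, SE 0.18 each, edgeR adjusted p = 0.417 and 0.103), while the average effect of 1.38-fold did (log2 0.47, SE 0.12, adjusted p = 0.021). That call was lost when library totals were used without TMM (log2 0.26, edgeR adjusted p = 0.0757).

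Bscl2, which encodes seipin at the contact of endoplasmic reticulum and droplet, was at 291 ± 37.9 CPM in elemental controls, 329 ± 42.5 in elemental MR, 256 ± 93.7 in casein controls and 353 ± 44.4 in oxidized casein MR (SD, n = 6 each). On casein the log2 difference was 0.46 (SE 0.17, edgeR adjusted p = 0.152) and on average 0.32 (SE 0.12, adjusted p = 0.12). The casein controls ran from 148.7 CPM in casein control 6 to 430.4 CPM in casein control 5. Without casein control 5 the casein difference was 0.67 with an edgeR adjusted p of 0.00744. Without casein control 6 it was 0.34, and the highest edgeR adjusted p with any 1 library left out was 0.336.

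The ATGL inhibitors passed none of the comparisons in the fit of diet means. G0s2 was at 185 ± 40.1 CPM in elemental controls, 179 ± 75.8 in elemental MR, 204 ± 118 in casein controls and 160 ± 79.6 in oxidized casein MR (SD, n = 6 each), with an average log2 difference of -0.20 (95% interval -0.73 to 0.32). Hilpda, known as a hypoxia-inducible gene, had medians of 25.51, 23.78, 31.37 and 27.03 CPM in the same order of diets. Casein control 5 was again apart, at 146.5 CPM, where the other casein controls reached at most 48.91 CPM. The casein difference of Hilpda was -0.85 (SE 0.36, edgeR adjusted p = 0.227), and without that library it was -0.16. Hilpda was called lower on casein with the lymph node as a term (log2 -0.96, edgeR adjusted p = 0.0488), with the adipocyte marker level as a term (log2 -1.13, adjusted p = 0.00228) and with library totals without TMM (log2 -1.11, adjusted p = 0.0338). G0s2 was called lower on casein with the adipocyte term (log2 -0.83, edgeR adjusted p = 0.0253). As for Plin4, these terms differed by diet, and 775 genes were called lower with the adipocyte term, where 70 were without it.

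The size of the MR effect did not pass a test of difference between the protein sources for any member. In the interaction test 0 of 10 members were called, with 0 of 15176 genes overall (0.0%), and 0 members and 506 genes (3.33%) had an unadjusted p under 0.05. DESeq2 and limma voom likewise called 0 members. The intervals are wide. For Plin5 the casein effect minus the elemental effect was 0.49 on the log2 scale (95% interval -0.59 to 1.56), for Plin2 it was 0.42 (-0.32 to 1.17), and for Hilpda -0.69 (-1.73 to 0.36). Plin2 and Plin5 passing on casein and not on elemental amino acids is therefore not shown to be a difference between the diets. The casein and elemental comparisons share no libraries.

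At equal methionine, the controls on casein had lower mean levels of Plin2 (275 against 557 CPM) and Plin5 (21.9 against 47.4 CPM) than the controls on elemental amino acids, and neither difference passed. In this comparison 0 of 10 members passed, as against 100 of 15176 genes (0.659%), 98 of them lower on casein (with library totals without TMM, 74 were higher and 49 lower), while 4 members and 12.6% of all genes had an unadjusted p under 0.05. The log2 difference was -1.02 for Plin2 (SE 0.26, edgeR adjusted p = 0.0654), -1.11 for Plin5 (SE 0.37, adjusted p = 0.175), -0.36 for Plin3 (SE 0.14, adjusted p = 0.274) and 0.88 for Hilpda (SE 0.36, adjusted p = 0.293). Below every elemental control lay 4 of 6 casein controls for Plin2 and 1 of 6 for Plin5. DESeq2 called Plin2 lower (log2 -1.02, DESeq2 adjusted p = 0.00727), and limma voom called 0 members. Between the MR diets 0 of 10 members and 0 genes passed (0.0%), with 1 member and 1060 genes (6.98%) at an unadjusted p under 0.05, and neither DESeq2 nor limma voom called a member. Plin2 had a log2 difference of -0.60 (SE 0.26, edgeR adjusted p = 0.676) and Plin5 of -0.62 (SE 0.37, adjusted p = 0.775), oxidized casein MR against elemental MR.

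Set out by diet, Plin5 and Plin2 had the same order of means. Plin5 averaged 93.3 ± 16.6 CPM in elemental MR, 60.6 ± 22.1 in oxidized casein MR, 47.4 ± 30.6 in elemental controls and 21.9 ± 10.9 in casein controls (SD, n = 6 each). Plin2 averaged 879 ± 189, 581 ± 189, 557 ± 234 and 275 ± 84.6 CPM in that order. The middle pair, oxidized casein MR and elemental controls, overlapped for both genes.

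The perilipin reads were split among the 5 genes in proportions whose means varied by diet for Plin2, Plin4 and Plin5. The summed level of the 5 perilipins averaged 3152 ± 554 CPM in elemental controls, 3289 ± 457 in elemental MR, 3276 ± 1098 in casein controls and 3382 ± 594 in oxidized casein MR (SD, n = 6 each). Plin2 made up 17.9% of these reads in elemental controls, 26.9% in elemental MR, 8.65% in casein controls and 17.8% in oxidized casein MR. Plin4 made up 39.7%, 31.7%, 52.7% and 40.4% in the same order, and Plin1 held between 35.9% and 38.3%. Plin5 was a small part throughout, from 0.755% in casein controls to 2.88% in elemental MR.

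Set against Plin1 in the same library, casein controls had 0.832 to 3.89 Plin5 reads per 100 Plin1 reads, and oxidized casein MR mice had 1.85 to 7.87. On elemental amino acids this ratio was 1.06 to 8.09 for controls and 6.18 to 10.7 for MR mice. For Plin2 the casein controls had 15.5 to 33.9 and the oxidized casein MR mice 24.4 to 70.7 reads per 100 Plin1 reads. For Plin4 the values were 126.7 to 192.5 and 91.34 to 128.8, so that the groups overlapped at their edges. These ratios need no scaling of library totals. All of them share the Plin1 reads of the library as denominator, and they were not tested.

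**Figure D3:**
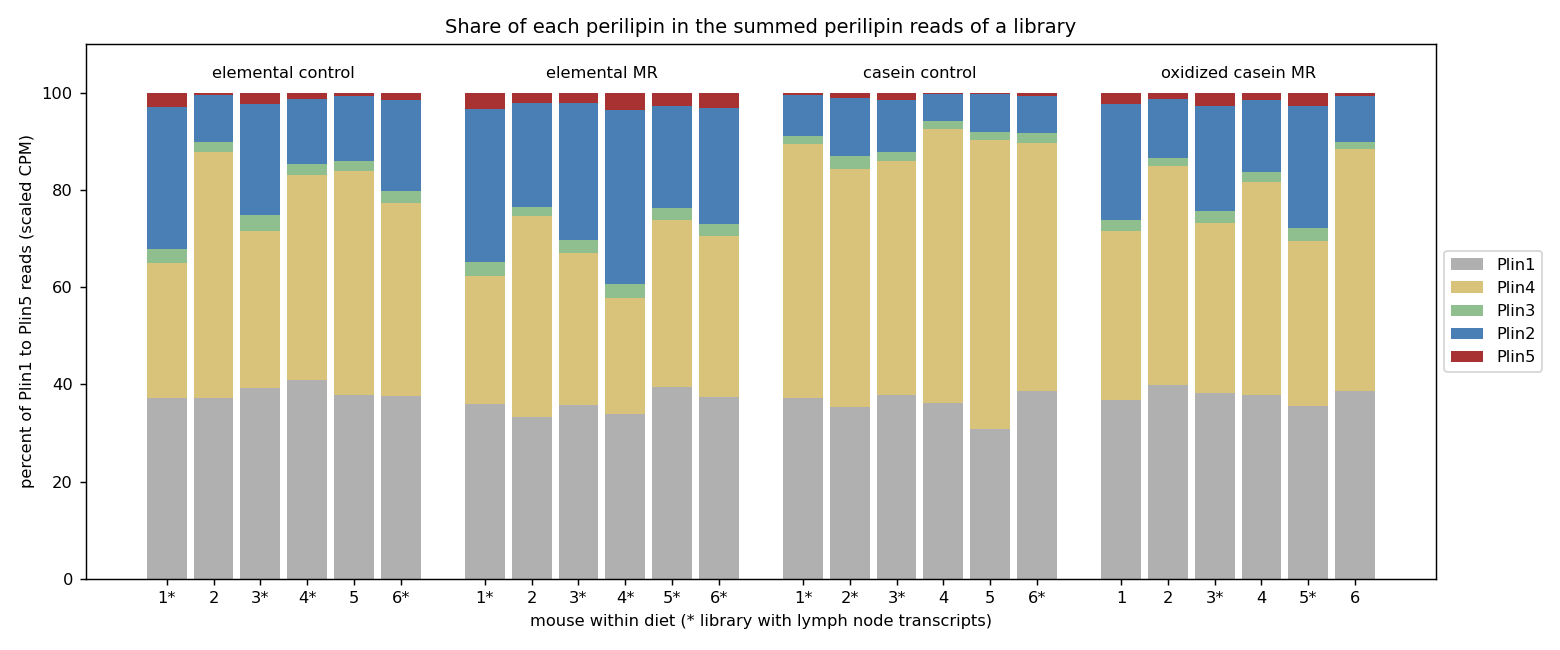
Stacked bars of the share of each perilipin in the summed perilipin reads (percent, vertical axis) in each of the 24 libraries, grouped by diet, with an asterisk for libraries with lymph node transcripts. The Plin2 band averages 8.65% in casein controls and 26.9% in elemental MR, and the Plin1 band stays near the same height.

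The lymph node moved with several members. Plin1 was at 815.5 to 1268 CPM in the 15 libraries with node transcripts and at 1259 to 1563 CPM in the 9 without, and Plin4 at 749 to 1506 CPM and 1335 to 3010 CPM. Cidec had medians of 648.8 and 935.4 CPM, Fitm2 of 66.08 and 91.55, Bscl2 of 271.1 and 370.4, and G0s2 of 136.7 and 246.7. Plin5 went the other way, with a median of 71.97 CPM with the node and 30.41 without, as did Plin2 with 583.3 and 444.8 CPM. The diets hold the node unequally, so that these medians mix diet and node.

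Within casein libraries that had the node, Plin5 was at 14.91 to 39.08 CPM in 4 controls and at 71.97 and 73.46 CPM in 2 MR mice. In those without it, Plin5 was at 12.41 and 16.09 CPM in 2 controls and at 28.7 to 90.1 CPM in 4 MR mice. The groups did not overlap in either set. For Plin2 they did not overlap with the node (158.7 to 337.3 against 578 and 660.4 CPM) and overlapped without it (231.2 and 397.6 against 377.5 to 910.5 CPM). How many of all genes separate in sets of 4 against 2 mice was not counted, so that non-overlap here is a description alone. With node presence as a term in the fit, the casein effect was 1.75 for Plin5 (edgeR adjusted p = 0.00359) and 1.11 for Plin2 (adjusted p = 0.0113) on the log2 scale. In fits of the node libraries alone or of the others alone, the Plin5 effect was 1.48 and 1.99 and the Plin2 effect 1.26 and 0.90, and none passed (edgeR adjusted p from 0.178 to 0.388), with 4 against 2 and 2 against 4 mice. Without casein control 6, neither call held (edgeR adjusted p = 0.052 for Plin2 and 0.0805 for Plin5). That library had the highest B cell marker level of all libraries (mean log2 CPM 6.93) and the lowest adipocyte marker level (9.36). Its Plin2 level was also the lowest of all (158.7 CPM), and its Plin5 level was 14.91 CPM. The Plin5 call was also lost without casein control 1, casein control 4 or oxidized casein MR 1 (adjusted p from 0.0614 to 0.0784), with log2 effects between 1.30 and 1.40.

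Across the 24 libraries, log2 CPM of Plin2 and Plin5 went together (Pearson r 0.897, and 0.738 for deviations from the diet means), and Plin2 and Plin3 likewise (0.865 and 0.883). Plin1 and Cidec formed another pair (0.864 and 0.907), and Plin4 went with both (0.732 with Plin1 and 0.834 with Cidec). Plin4 and Plin5, neighbours on the chromosome, ran opposite (-0.673, and -0.597 within diets). These r are descriptions over 24 libraries that share depth, scaling and tissue makeup, including the lymph node.

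The genes with the pattern most like each member were picked by the same r over 24 libraries. For Plin5 they included Letmd1 (0.985) and Acadvl (0.973), the very-long-chain acyl-CoA dehydrogenase of fatty acid oxidation. For Plin2 they were Cycs (0.978), cytochrome c, Slc25a39 (0.969) and Mecr (0.969), an enzyme of mitochondrial fatty acid synthesis. Plin4 was nearest to Cavin1 (0.962), a coat protein of caveolae, then Slc1a5 (0.955) and Sulf2 (0.949). Cidec was nearest to Lpl (0.907), lipoprotein lipase, and Plin1 to Grina (0.933). Bscl2 had Bcap31 (0.958), an endoplasmic reticulum protein, and Abhd5 (0.921) among its nearest, and Fitm2 had Bnip3l (0.922). Plin3 was nearest to Atg10 (0.914), Hilpda to Trp53inp2 (0.912) and G0s2 to Tfpi2 (0.858).

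Other genes of the droplet pathway were read from lists chosen by function. Of 15 further droplet proteins, 0 passed in either MR comparison and 1 passed for the average effect: Cidea, a CIDE protein of brown and beige droplets, at 494 ± 368 CPM in elemental controls, 909 ± 228 in elemental MR, 164 ± 141 in casein controls and 559 ± 187 in oxidized casein MR (SD, n = 6 each). It was 2.51-fold higher on average (log2 1.33, SE 0.40, edgeR adjusted p = 0.0496), a call that was lost without the muscle-rich libraries, without the filter on low counts and within either lymph node set. With 1 library left out, 0 to 1 of the 15 rose on casein and 0 to 1 on average. The median log2 fold change of this list on casein was 0.10, beside -0.06 over all genes.

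Of 13 lipolysis genes, 2 rose on casein, Abhd5 (log2 0.60, SE 0.16, edgeR adjusted p = 0.0365) and Pnpla2, the lipase ATGL (log2 0.52, SE 0.15, adjusted p = 0.0467). On elemental amino acids 0 of 13 passed, and for the average effect 4 did, with Prkaca and Prkar2b, subunits of protein kinase A, added (log2 0.35 and 0.43). With library totals in place of TMM, 0 of 13 passed on casein and 0 of 13 on average. With 1 library left out, 0 to 5 of the 13 rose on casein and 3 to 7 on average. Lipe, hormone-sensitive lipase, did not pass on casein (log2 0.38, edgeR adjusted p = 0.224).

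Of 13 triglyceride synthesis genes, 1 rose on elemental amino acids, Agpat3 (log2 0.61, SE 0.13, edgeR adjusted p = 0.0382). On casein 4 rose: Agpat3 (log2 0.65), Dgat1 (0.77), Gpam (1.22), the mitochondrial acyltransferase of the first step, and Agpat2 (1.04), which makes phosphatidic acid. On average 6 of 13 rose. In casein controls against elemental controls 2 of 13 were lower, Agpat2 (log2 -1.10, SE 0.22, edgeR adjusted p = 0.019) and Gpam (log2 -1.17, SE 0.25, adjusted p = 0.0314). Gpam was low in all diets, with means from 1.82 CPM in casein controls to 5.28 CPM in elemental MR. Dgat2 had a log2 difference of -0.40 on casein (edgeR adjusted p = 0.553). The list median was 0.45 on casein and 0.27 on elemental amino acids. With 1 library left out, 0 to 2 of the 13 rose on elemental amino acids, 4 to 6 on casein and 6 to 7 on average. Between the controls, 0 to 2 of the 13 were then called lower on casein.

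Of 13 transcriptional regulators of droplet genes, 3 rose on casein: Mlxipl (log2 1.10, SE 0.24), which encodes the carbohydrate response factor ChREBP, Esrra (0.76, SE 0.20) and Ppargc1b (1.11, SE 0.30), with edgeR adjusted p of 0.011, 0.0308 and 0.037. On elemental amino acids 0 of 13 passed, and on average 6 did. With 1 library left out, 1 to 4 rose on casein, 0 to 2 on elemental amino acids and 5 to 7 on average. Among the PPARs, Ppara rose 2.24-fold on average (log2 1.16, SE 0.32, edgeR adjusted p = 0.0282), and Pparg had a log2 difference of 0.29 (SE 0.21, adjusted p = 0.496). Of 13 hypoxia-inducible genes, listed beside Hilpda, 2 rose on casein, Egln3 (log2 1.47) and Egln1 (0.59), and 3 on average, with Pdk1 (0.50). Egln3 was low, with means of 2.355 CPM in casein controls and 6.478 CPM in oxidized casein MR. The list as a whole had a median log2 difference of -0.025 on casein, 0.185 on elemental amino acids and 0.041 on average. Over all genes tested the medians were -0.063, -0.021 and -0.068. Vegfa had a log2 difference of 0.39 on casein (edgeR adjusted p = 0.3), and Hilpda itself passed in neither comparison.

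**Figure D4:**
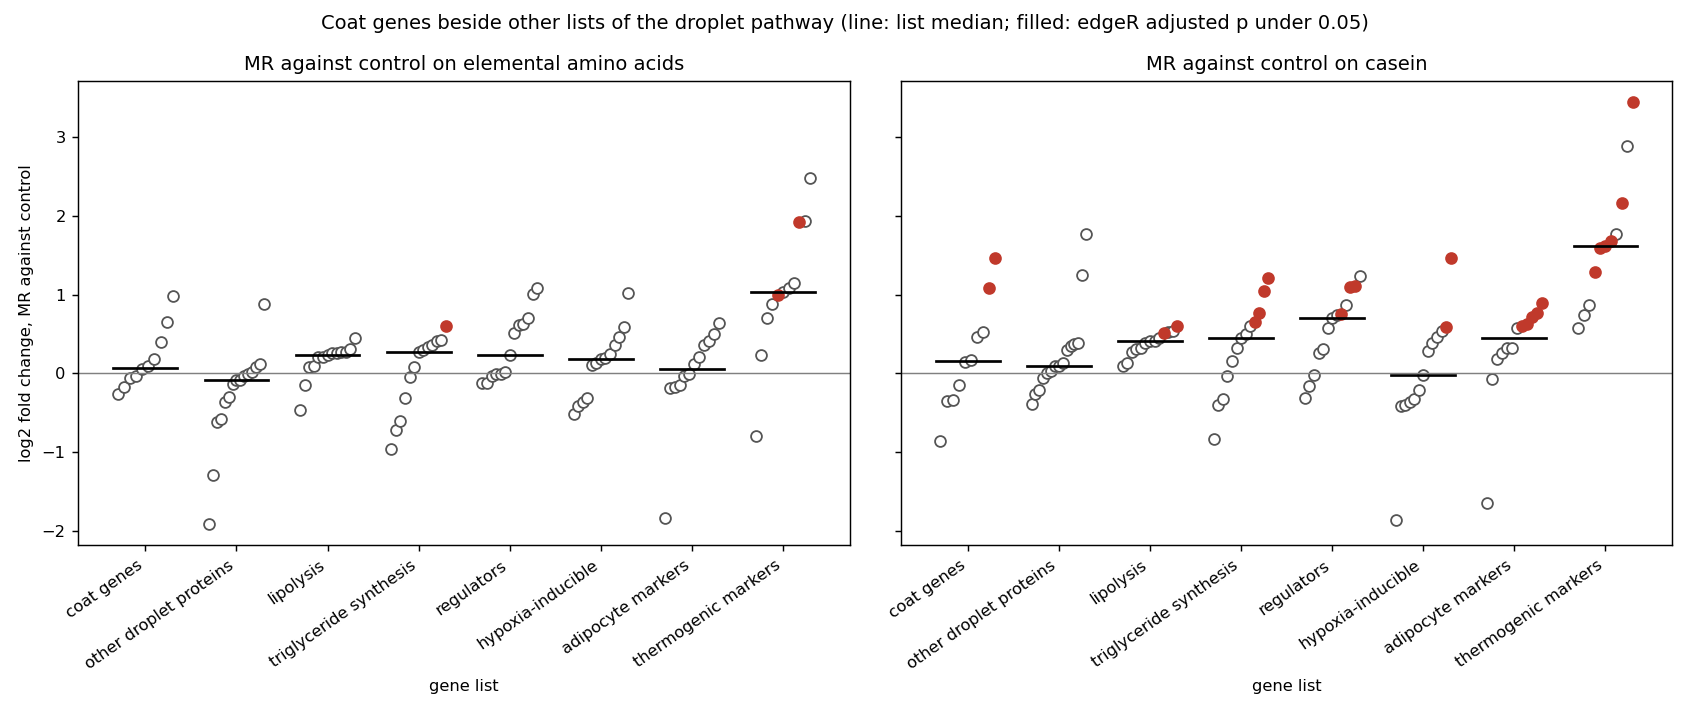
Log2 fold change of MR against control for every tested gene of each list, on elemental amino acids (left) and on casein (right), 1 point per gene; filled points passed the edgeR test and lines are list medians. The coat genes have a median of 0.16 on casein with 2 of 10 filled, and thermogenic markers a median of 1.62 with 6 of 11 filled.

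Markers of cell types moved beside the coat genes. Of 11 thermogenic adipocyte markers in the table, a list that also holds Cidea and Ppargc1a, 2 rose on elemental amino acids (Kcnk3, log2 0.99, and Gk, 1.93), 6 on casein and 9 on average. On elemental amino acids their summed level had a median of 1453 CPM for controls (586.5 to 3797) and 4360 for MR mice (3512 to 6539). On casein it was 497.8 for controls (274.5 to 1417) and 2978 for MR mice (1007 to 4489). With 1 library left out, 0 to 2 of the 11 rose on elemental amino acids, 3 to 8 on casein and 8 to 9 on average. No marker of this list was at 0 in all libraries, and its part in the Plin5 and Plin2 results was not tested. Of 12 adipocyte markers, 0 passed on elemental amino acids and 5 rose on casein, and for the average effect 4 rose and 1, Lep, fell (log2 -1.74, edgeR adjusted p = 0.0239). With library totals in place of TMM 1 of the 12 rose on casein, and with 1 library left out 2 to 5 did. For the average effect 4 to 5 rose and 0 to 1 fell with 1 library left out. The median summed level of the 12 was 37300 CPM in casein controls and 54040 CPM in oxidized casein MR.

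In the list of 10 macrophage markers 1 fell on casein, Cd68 (log2 -0.96, edgeR adjusted p = 0.0367), and 3 on average, and of 10 progenitor markers 2 fell on average, Cd34 and Col3a1 (log2 -0.64 and -0.83). With 1 library left out, 0 to 1 macrophage markers fell on casein and 3 to 6 on average, and 0 to 2 progenitor markers fell on average. B cell, skeletal muscle and hepatocyte markers (10 each) had 0 calls in every comparison by edgeR, although the B cell list had a median log2 difference of -1.11 on casein and the muscle list one of 0.98. The hepatocyte median was -1.77 on elemental amino acids, 0.05 on casein and -2.45 for casein against elemental controls. The muscle median was -1.07 on elemental amino acids and -3.61 for those controls. The highest hepatocyte sum, 10430 CPM, was in an elemental control, a group with a median of 938.8 CPM. The part of hepatocyte transcripts in the Plin2 and Plin5 results was not tested. With the adipocyte marker level as a term in the fit, the casein effect was 1.82 for Plin5 and 1.07 for Plin2 (log2, edgeR adjusted p = 0.00462 and 0.0165). With mitochondrially encoded reads left out of the table it was 1.49 and 1.11 (adjusted p = 0.0202 and 0.0122). The part of the mitochondrial read share in these results was not tested further.

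Annotated overlaps could add reads to 4 members, since the strand setting of the counting is not given in the sources used here. Plin4 shares exon sequence with Hdgfl2 on the other strand (means of 14.5 to 16.0 CPM by diet), Fitm2 with the antisense gene 2310001K24Rik (1.42 to 3.11 CPM), Bscl2 with Gng3 (0.294 to 0.897 CPM), and G0s2 lies in an intron of Lamb3 (2.76 to 4.37 CPM). Each of these 4 genes had a small part of the level of its member. Bscl2 also shares exon sequence with AC129217.1 on its own strand, for which no level is given here. Plin2 and Plin5 overlap no annotated gene.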

How the data were processed

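RNA from 24 IWAT samples was sequenced with QuantSeq, a 3′ mRNA kit, as 50 bp forward reads, per the labels' protocols. The authors deposited a table of raw whole-number counts per Ensembl gene (16821 genes, smallest total 72 reads) and a normalized signal table, whose values are those counts divided by a size factor per library (largest relative difference 5.6e-15). DESeq2 1.18.1 under R 3.4.3 and the builds GRCm38 and mm10 are named in the submitters' processing notes. For aligner, counter and strand setting, the sources used here give nothing. Symbols and coordinates came from GENCODE M21 (16771 genes matched), promoters from RefSeq on GRCm38.p6.

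The tests used edgeR 4.0.16 under R 4.3.3 (filterByExpr, TMM, robust quasi-likelihood F test, 2-sided). A single fit of diet means covered all 24 libraries and 15176 genes, 1645 being removed, with Benjamini-Hochberg adjustment over all tested genes and a threshold of 0.05. The 6 comparisons are those of the report. Correlations used log2 CPM with a prior count of 2. The fit was tested on simulated data. The closest libraries of a diet differed by more than counting error (chi-square per degree of freedom 6.21).

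The members and gene lists were chosen with earlier results of these data known. Named genes are all members; for each list, those past the threshold (at most 4 per comparison, smallest p first) or, with none, up to 3 with values only; and the 3 genes most like each member, some of which are not reported here. A few more, such as Lipe, Pparg, Dgat2 and Vegfa, were added as known parts of the pathway after their values were seen. The alternatives were library totals without TMM, DESeq2 1.42.0, limma voom 3.58.1, no filter, no mitochondrial reads, lymph node or adipocyte marker level as a term, subsets of libraries, and each library left out in turn. Without molecular identifiers, reads may be PCR copies, and errors rest on the spread between mice.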

Additional observations from a re-analysis of the deposited data

Results flagged for a closer look

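Each member's 6 mice of a diet were checked for a mouse far from the others, by the gap to its nearest neighbour relative to the range (Dixon's test), on the CPM and log2 scales. In 40 groups chance alone flags about 1 in 20.

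Plin3 in oxidized casein MR 1 stood at 85.37 CPM, above the other 5 mice of its diet, on both scales. Bscl2 in casein control 5 stood at 430.4 CPM, and Hilpda in the same library at 146.5 CPM, both on the CPM scale alone. Casein control 5 also held the highest Plin1, Plin2, Plin3, Plin4, Cidec, Fitm2 and G0s2 levels of its diet. Plin5, at 16.09 CPM, was the only member for which it was not the highest. It carried no lymph node transcripts, and its adipocyte marker level was the highest of its diet (mean log2 CPM 10.62).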

How the results depend on the processing

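Each member's log2 difference in each comparison was recomputed under other settings. With another method or subset, 539 of these values kept direction and side of the threshold, 68 changed sign, 24 gained a call and 9 lost one. With 1 library left out, the counts were 1397, 31, 7 and 5 in that order. Plin2 and Plin5 were called on casein and on average with library totals, DESeq2, limma voom, no filter, no mitochondrial reads and either added term. With library totals the median log2 difference of all genes was -0.339 on casein, -0.165 on elemental amino acids, -0.278 for the average effect, 0.244 for the controls and -0.122 for the difference between MR effects. On casein, with that scaling, 308 genes were higher and 1731 lower, where 509 and 70 were reported; on average it was 478 and 3267, where 794 and 267 were reported. On elemental amino acids it was 24 and 20, where 33 and 4 were reported, and for the controls 74 and 49, where 2 and 98 were reported. Hilpda was called lower on casein and on average with that scaling (log2 -1.11 and -0.709). Other counts over all genes that moved by more than 1.5 times, higher and lower, were in DESeq2 801 and 129 on casein, 154 and 62 on elemental amino acids, 38 and 361 for the controls, 9 and 2 for the MR diets and 2 and 0 for the interaction. With the adipocyte term they were 651 and 775, 173 and 291, 83 and 301, 1 and 1 and 0 and 0 in that order, and with the lymph node term 689 and 431, 104 and 62 and 44 and 269 for the leading 3. With only the libraries of a comparison they were 319 and 20, 22 and 1 and 0 and 2 in that order. For the average effect they were 1040 and 1373 with the adipocyte term, 1057 and 884 with the lymph node term, 272 and 72 in libraries with the node and 164 and 156 in those without. On casein they were 5 and 0 with the node and 75 and 97 without it, on elemental amino acids 3 and 2 and 0 and 0, and for the controls 16 and 161 and 0 and 0. Without the muscle-rich libraries they were 7 and 1 on elemental amino acids and 7 and 163 for the controls. With 1 library left out, the fewest and most calls over all genes on elemental amino acids were 6 and 1 (without elemental control 5 or elemental MR 6) and 205 and 47 (without elemental control 1). On casein the fewest were 278 and 38 (without casein control 6), and counts also fell by more than 1.5 times without casein control 1 or oxidized casein MR 1. For the controls the counts ran from 0 and 24 (without elemental control 3) to 5 and 197 (without elemental control 2).

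The number of members called was 1 on elemental amino acids with the lymph node or adipocyte term (Fitm2). On casein it was 5 with the lymph node term (Plin2, Plin5, Fitm2 higher, Plin4 and Hilpda lower), 6 with the adipocyte term (Plin2 and Plin5 higher, Plin4, Cidec, Hilpda and G0s2 lower) and 0 within either lymph node set, where fewer mice were tested. For the average effect it was 5, 6 and, without the node alone, 0. For the controls it was 1 (Plin2) in DESeq2, with the lymph node term, in libraries with the node and without muscle-rich libraries, and 2 with the adipocyte term (Plin2 and Plin4). With 1 library left out it was 0 to 4 on casein (0 without casein control 6, 4 without casein control 5), 3 to 4 for the average effect, 0 to 1 for the controls and 0 in the other comparisons. The cause was not tested.

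Differences that changed sign were these, none called in the fit reported. With the adipocyte marker level as a term, the log2 difference changed sign for MR on casein Plin1 -0.136, for the average MR effect Plin1 -0.0791, for the difference between MR effects Plin1 -0.115, Plin3 -6.51e-05 and Fitm2 -0.18. There too, the log2 difference changed sign for the controls Plin1 0.00349 and Fitm2 0.0129, for the MR diets Plin1 -0.111, Cidec -0.288, Fitm2 -0.167, Bscl2 -0.106 and Hilpda -0.22. With library totals without TMM, the log2 difference changed sign for MR on elemental amino acids Plin3 -0.0386 and Cidec -0.0976, for MR on casein Plin1 -0.125 and Plin3 -0.0979, for the average MR effect Plin1 -0.151 and Plin3 -0.0682. There too, the log2 difference changed sign for the difference between MR effects Plin3 -0.0593, for the controls Plin1 0.152, Fitm2 0.161 and Bscl2 0.0151. In limma voom, the log2 difference changed sign for the average MR effect Cidec 0.0272, for the controls G0s2 -0.074. With the lymph node as a term, the log2 difference changed sign for MR on elemental amino acids Plin1 0.0498 and G0s2 0.0678, for the difference between MR effects Plin1 -0.0486 and Fitm2 -0.109, for the MR diets Plin1 -0.13, Plin4 -0.059, Cidec -0.304, Fitm2 -0.187, Bscl2 -0.0953 and Hilpda -0.238. In libraries with lymph node transcripts alone, the log2 difference changed sign for MR on elemental amino acids Plin1 0.0405, for MR on casein Plin1 -0.0128, for the average MR effect Cidec 0.0645. There too, the log2 difference changed sign for the difference between MR effects Plin1 -0.0533 and Fitm2 -0.0314, for the controls G0s2 -0.255, for the MR diets Plin1 -0.236, Plin4 -0.0437, Cidec -0.305, Fitm2 -0.224, Bscl2 -0.166 and Hilpda -0.128. In libraries without lymph node transcripts alone, the log2 difference changed sign for MR on elemental amino acids Plin1 0.0178, Cidec -0.0294, Bscl2 -0.0405, Hilpda 0.177 and G0s2 0.378, for MR on casein Plin1 -0.0348, for the average MR effect Plin1 -0.00847. There too, the log2 difference changed sign for the difference between MR effects Plin1 -0.0526, Plin2 -0.162, Plin3 -0.1, Plin5 -0.0686 and Fitm2 -0.321, for the controls Plin1 0.12, Fitm2 0.15 and Bscl2 0.0185, for the MR diets Plin4 -0.0662, Cidec -0.0164, Fitm2 -0.171 and Hilpda -0.0234. Without the muscle-rich libraries, the log2 difference changed sign for the difference between MR effects Plin4 0.0246, for the controls Fitm2 0.0398, for the MR diets G0s2 0.0864. Ranges over the libraries left out that crossed 0 were, for MR on elemental amino acids Plin1 -0.08 to 0.043, Cidec -0.0164 to 0.194 and G0s2 -0.241 to 0.0703, for MR on casein Cidec -0.301 to 0.182. Further ranges of this kind were, for the average MR effect Cidec -0.13 to 0.117, for the difference between MR effects Plin4 -0.223 to 0.138, Cidec -0.343 to 0.131 and Hilpda -0.843 to 0.00955. The remaining ones were, for the controls Plin1 -0.162 to 0.0261, Cidec -0.0265 to 0.447, Fitm2 -0.182 to 0.0478 and G0s2 -0.126 to 0.317, for the MR diets Cidec -0.0379 to 0.208 and G0s2 -0.422 to 0.058.

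No paired analysis was possible because the replicate numbers only name mice, which are different animals in each diet. Hilpda and Plin5, the lowest members, had at least 156 and 183 reads in every library.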
